A study of Rattus norvegicus with 9 samples.

Results

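Growth of the rat colon carcinoma line CC-531 in 3D was compared with its growth in 2D culture. The 6 libraries of 3D growth, 3 of organoids (p7, p8 and p9) and 3 of ex vivo tumors (1, 2 and 3), were set against the 3 libraries of cells in culture (p5, p8 and p11), which together are all 9 libraries of the series. A gene was taken as shared by 3D growth, and is called below, when organoids and ex vivo tumors each differed from the cells in the same direction (edgeR's quasi-likelihood test, Benjamini-Hochberg adjusted p under 0.05) and all 6 libraries of 3D growth lay on one side of all 3 cell libraries. Of 34322 genes in the table, 27324 had any count and 13331 were tested. Of those tested, 378 (2.84%) were called higher in 3D growth and 141 (1.06%) were called lower.

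CC-531 was derived from a colon carcinoma of WAG/Rij rats. Organoids were grown from the line in matrigel, a basement membrane extract. Ex vivo tumors were peritoneal lesions of WAG/Rij rats, 8 to 10 weeks old, that had received the line by injection. Cells were cultured in RPMI1640 with 10% fetal bovine serum. No drug or heat treatment is labelled for any library. The number after p is the passage in culture, the libraries of a type came from different passages, and no animal is named for a tumor. The line is a single tumor's, so it stands for 1 carcinoma. The libraries are not stated to come from separate cultures or animals, so p-values measure only how these libraries scatter, and that scatter may be technical. Both kinds of 3D growth were compared with the same 3 cell libraries, so their results are not independent of each other. 3D growth differs from 2D culture in the matrix around the cells as well as in shape, and in the tumors also in the blood supply and the host's own cells. The medium of the organoids is not given in the sources used here and may differ as well. These differences cannot be told apart by this design.

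Colon epithelium grown in a matrix or in tissue can form closed, polarized layers around a lumen, with an apical brush border and secretion of mucus, while cells spread in 2D pull on integrins and actin and keep the transcriptional co-activators YAP and TAZ, which act through TEAD factors, in the nucleus. Cells in the core of a 3D mass receive less oxygen and nutrients, and oxygen shortage stabilizes hypoxia-inducible factors (HIF). Stem cells at the base of the colon crypt depend on WNT signaling. The groups of genes described here follow these processes.

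Counts are given as CPM, counts brought to a common library size with TMM factors (trimmed mean of M values). Library totals were 12601774 to 24335921 counts. A gene with no count in any library of its type may still reach 0.0561 CPM in organoids, 0.0661 CPM in ex vivo tumors and 0.0511 CPM in cells (3 counts over the group, counting error only). Epithelial identity was visible in every library. Epcam was at 761 to 978 CPM in organoids, 948 to 1104 CPM in ex vivo tumors and 594 to 874 CPM in cells, and Krt8, Krt18, Krt19, Cdh1 and Cdx2 had counts throughout, whereas the colon factor Cdx1 was at or near 0 in all 9. RNA of other cell types was seen in the tumors. The summed level of 28 fibroblast and matrix genes was 8304 to 15820 CPM in ex vivo tumors, against 138 to 177 CPM in organoids and 287 to 392 CPM in cells. For 26 macrophage and myeloid genes it was 4153 to 4882 CPM in ex vivo tumors, 30.8 to 73.3 CPM in organoids and 38.6 to 60.2 CPM in cells, where C1qa, C1qc and Tyrobp were at 0. Host and line are of the same species, so their reads add up. In such bulk RNA fewer cells of a type and less RNA per cell cannot be told apart. Organoids p7 stood apart from p8 and p9, being over 2-fold above their mean log2 level in 79 of the 378 genes called higher and over 2-fold below it in 47. Over all genes tested, the median absolute log2 difference of organoids p7 was 0.456 to organoids p8 and 0.442 to organoids p9. It was smaller to cells p11 (0.314), ex vivo 3 (0.36), ex vivo 2 (0.397) and cells p8 (0.414), and 0.441 to cells p5. The root mean square of the differences ranked them otherwise. By it p7 was 0.839 from organoids p8, 0.824 from organoids p9, 0.817 from cells p11, 0.918 from cells p8 and 0.92 from cells p5. Its distance by this measure was 1.153 to ex vivo 2 and 1.217 to ex vivo 3. The smallest median difference of any pair was 0.105, between organoids p8 and p9. What part host cells or this library have in a gene's difference was not tested.

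The genes called higher had larger fold changes than those called lower. Among the 378 genes called higher the median log2 fold change was 2.26 in organoids and 2.75 in ex vivo tumors, against 0.03 in organoids and 0.00 in ex vivo tumors over all genes tested. Of the 378 genes, 341 were at least 2-fold higher in both kinds of 3D growth, 195 at least 4-fold and 56 at least 16-fold. Their median level was 11.6 CPM in organoids, 20.8 CPM in ex vivo tumors and 1.84 CPM in cells, and in 152 of them the cells averaged under 1 CPM. The 141 genes called lower had a median log2 fold change of -1.43 in organoids and -1.44 in ex vivo tumors. At least 2-fold lower in both were 102 of them, at least 4-fold 17 and at least 16-fold 2. Their median level was 23.2 CPM in organoids, 24.8 CPM in ex vivo tumors and 62.5 CPM in cells. In 5 of them both kinds of 3D growth averaged under 1 CPM. Genes were tested only if their mean over 9 libraries, 6 of them of 3D growth, passed a filter on low values. Genes almost absent from 3D growth were thus removed more readily than genes almost absent from cells. How far this sets the larger fold changes of the higher genes was not tested. All 6 libraries of 3D growth were above all 3 cell libraries in 982 genes (7.37%) and below them in 737 (5.53%), whether or not the tests were passed.

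The calls rest on 9 libraries, and single ones decide many of them. Without organoids p7, 587 genes were called higher and 335 lower, of which 345 and 140 were among the original ones. Without cells p8 the counts were 171 and 51, and without cells p5 they were 197 and 59. The count of lower genes also moved by more than 1.5 times without organoids p8 (77), organoids p9 (76), ex vivo 2 (77) and ex vivo 3 (83). When an adjusted p is given below for a left-out library, it is the larger of the 2 comparisons with cells. The cell library nearest to 3D growth was p11 in 216 of the genes called higher and 75 of those called lower, so the highest passage in culture most often set the edge of the 2D group. The library of 3D growth nearest to the cells was organoids p7 in 96, p8 in 77 and p9 in 88 of the genes called higher, and each ex vivo tumor in 26 to 48.

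**Figure D1:**
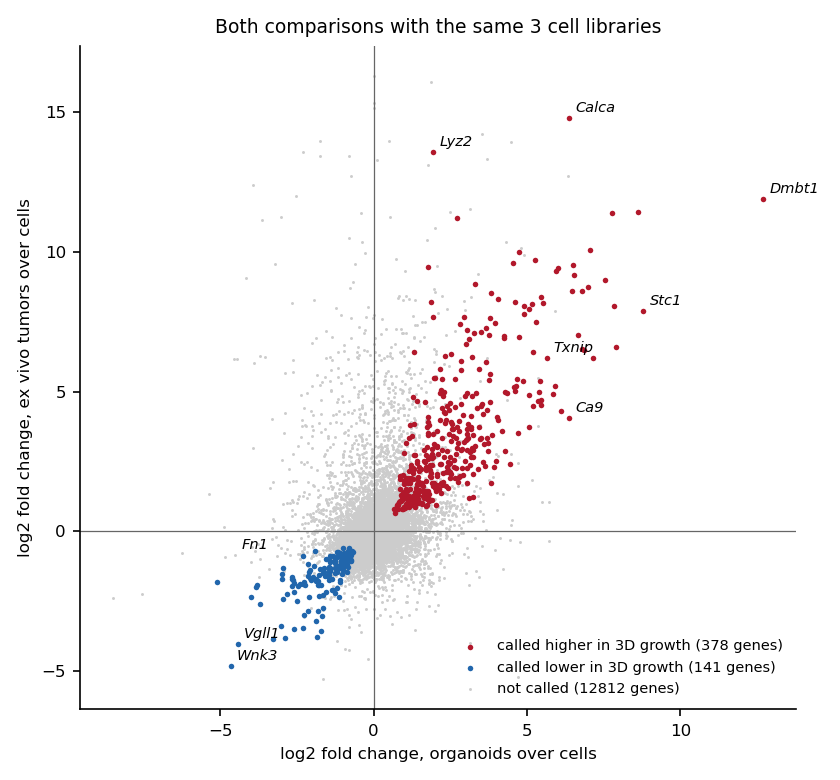
Each point is 1 of 13331 genes, placed by its log2 fold change in organoids over cells (horizontal axis) and in ex vivo tumors over cells (vertical axis), with 378 genes called higher in red and 141 called lower in blue. Both axes use the same 3 cell libraries, so agreement between them is partly built in. The called genes fill the upper right and lower left corners, with Dmbt1, Stc1 and Calca far out among the higher ones and Wnk3 and Vgll1 among the lower ones.

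The 12 leading genes called higher were near or at 0 in the cells. They were ranked by the smaller of the 2 log2 fold changes among named genes with a mean of at least 10 CPM in a sample type, and were Dmbt1, Sbspon, Stc1, Agr2, Hopx, Akr1c14, Tmem176b, Col22a1, Naip6, Ndufa4l2, Myo7b and Nlrp1a. Stc1, the gene of the secreted glycoprotein stanniocalcin 1, was at 13.5, 21.2 and 20.2 CPM in organoids p7, p8 and p9 and at 12.4, 7.71 and 8.94 CPM in ex vivo tumors 1, 2 and 3, against 0.0433, 0.0556 and 0 CPM in cells p5, p8 and p11. With 2 counts in the cells, it was 527-fold higher in organoids (95% counting interval 145 to 4356) and 277-fold higher in ex vivo tumors (76.1 to 2292). The highest of the 6 values of 3D growth was 2.75-fold the lowest. Ndufa4l2, a mitochondrial protein gene that HIF induces, was at 9.20, 13.8 and 20.9 CPM in organoids and 26.1, 13.5 and 15.9 CPM in ex vivo tumors, against 0.130, 0.0556 and 0.226 CPM in cells. Its log2 fold change was 6.67 (SE 0.55, adjusted p = 0.000117) in organoids and 7.01 (SE 0.55, adjusted p = 5.52e-06) in ex vivo tumors. Hopx, a homeodomain protein found in subsets of intestinal stem cells of mice, had no count in the cells, against which its 1.07 to 2.32 CPM in organoids were at least 31.1-fold higher and its 14.6 to 23.7 CPM in ex vivo tumors at least 360-fold higher. Sbspon, which encodes a matrix protein with thrombospondin repeats, likewise had no count in the cells. It was at 6.05, 1.01 and 1.33 CPM in organoids p7, p8 and p9 and at 8.96, 29.6 and 19.4 CPM in ex vivo tumors. With the libraries of a type pooled, the organoids were at least 59.7-fold higher, a value that rests largely on p7, and the tumors at least 406-fold higher. Tmem176b, a membrane protein gene, was at 11.3 to 19.6 CPM in organoids and 81.8 to 158 CPM in ex vivo tumors, with at most 0.282 CPM in cells. Akr1c14, a steroid dehydrogenase gene, was at 21.6, 1.01 and 0.20 CPM in organoids p7, p8 and p9 and at 15.7 to 26.3 CPM in ex vivo tumors, against 0.0867, 0 and 0 CPM in cells, so that p9 lay close to the cells. Its call was lost without cells p5 (adjusted p = 0.102), p8 (0.0947) or p11 (0.0568). Col22a1, a collagen chain, was at 7.79, 0.674 and 0.733 CPM in organoids and 3.65, 11.3 and 16.4 CPM in ex vivo tumors, with 1 count in the cells. Its call was lost without cells p5 (0.0751) or p8 (0.0634). It fell below the filter on low values without organoids p7 or any 1 ex vivo tumor, as did Hopx without any ex vivo tumor, and Sbspon and Nlrp1a without ex vivo 2 or 3.

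The 12 leading genes called lower kept some counts in 3D growth. The filter on low values favors this, since 6 of the 9 libraries that it averages are of 3D growth. They were Wnk3, Vgll1, Chrnb4, Dok7, Lmo1, Ptprd, Rgs17, Akap12, Gdpd3, Abcg2, Mcc and Tdgf1. Wnk3, a kinase that regulates chloride cotransporters, was at 0.871, 2.25 and 2.20 CPM in organoids and 0.988, 1.76 and 1.94 CPM in ex vivo tumors, against 63.8, 43.3 and 27.2 CPM in cells. Its log2 fold change was -4.67 (SE 0.46, adjusted p = 0.000393) in organoids and -4.83 (SE 0.47, adjusted p = 2.8e-05) in ex vivo tumors, the largest fall of the named genes by this rank. Vgll1, a cofactor that binds TEAD factors, was at 0.168 to 1.99 CPM in organoids and 0.912 to 1.32 CPM in ex vivo tumors, against 16.5 to 25.5 CPM in cells. Chrnb4, a subunit of nicotinic acetylcholine receptors, was at 0.581 to 2.64 CPM in organoids, 0.684 to 1.60 CPM in ex vivo tumors and 15.1 to 18.2 CPM in cells. Akap12, a scaffold of protein kinase A, was at 28.8 to 45.9 CPM in organoids, 19.4 to 25.5 CPM in ex vivo tumors and 134 to 180 CPM in cells, and its log2 fold change was -2.14 (SE 0.23, adjusted p = 0.000515) in organoids and -2.86 (SE 0.24, adjusted p = 8.53e-06) in ex vivo tumors. Mcc, named for its mutation in colorectal cancers, was at 20.9 to 23.4 CPM in organoids, 24 to 37.6 CPM in ex vivo tumors and 72.9 to 148 CPM in cells. Tdgf1, which encodes the NODAL co-receptor Cripto, was at 5.42 to 15.7 CPM in organoids and 7.60 to 23.6 CPM in ex vivo tumors, against 36.7 to 60.7 CPM in cells. Wnk3, Vgll1, Chrnb4, Dok7, Ptprd, Akap12, Abcg2 and Mcc kept the call whichever library was left out. The others lost it without 1 of several libraries, Lmo1 with adjusted p up to 0.0953 (cells p8), Rgs17 up to 0.0804 (ex vivo 1), Gdpd3 up to 0.0755 (ex vivo 3) and Tdgf1 up to 0.0585 (ex vivo 3).

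**Figure D2:**
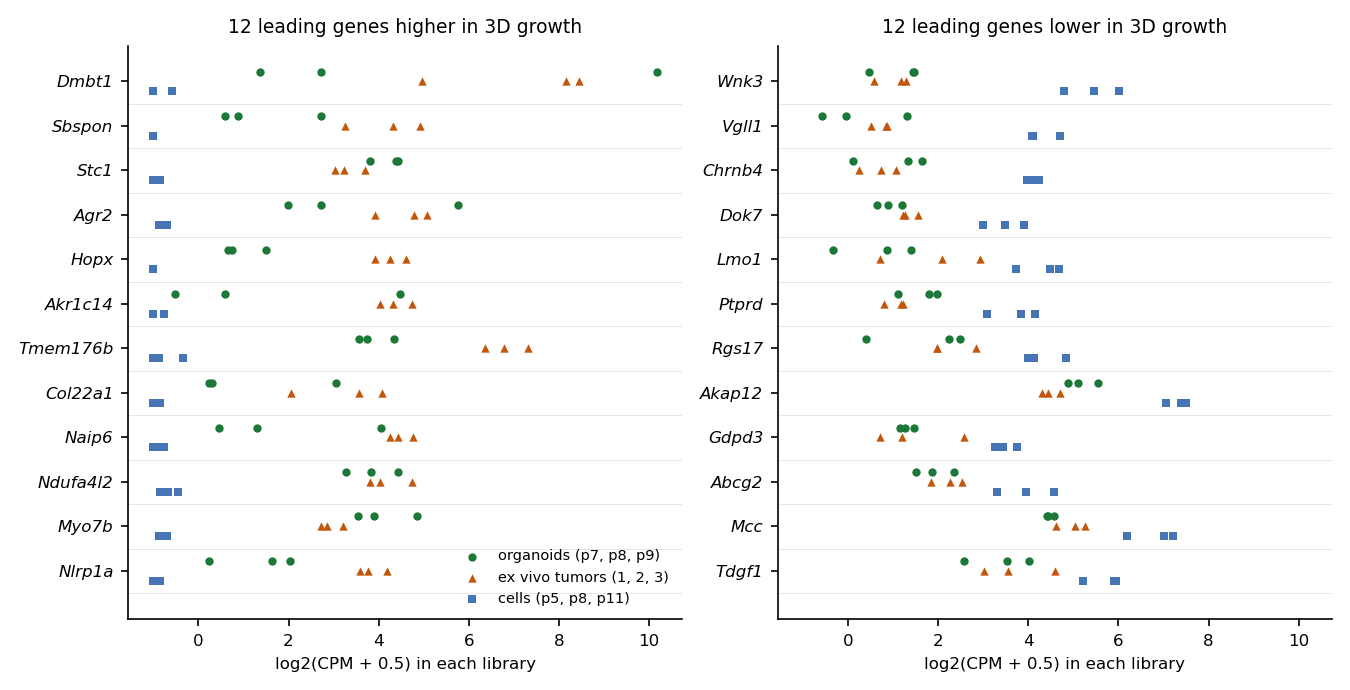
Points show log2(CPM + 0.5) (horizontal axis) in each library for the 12 leading genes called higher (left panel) and the 12 called lower (right panel), with organoids as circles, ex vivo tumors as triangles and cells as squares. The higher genes have cell values at the left edge. Dmbt1, Agr2, Akr1c14, Naip6, Col22a1 and, by less, Sbspon have 1 organoid library, p7, far above the other 2. The lower genes keep counts in 3D growth, and their cell values lie apart to the right.

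Promoters of 4 leading genes are shown, 2 from each direction, to let the letters around their start sites be read beside these values. They were chosen because each holds a motif searched here. Of the 24 leading genes 17 had a window, and 9 of the 17 windows held none of the motifs, among them that of Ndufa4l2. They come from RefSeq windows of rat assembly GRCr8, from 250 bases before to 50 bases after a gene's start, in the gene's own direction. Capitals mark 4 motifs that were searched on both strands, none of which contains another: TEAD (GGAATG), TCF/LEF (CTTTGA), the hypoxia response core (ACGTG) and AP-1 (TGANTCA). The windows are chr6:58435658-58435957 on the plus strand for Agr2, chr14:31429163-31429462 on the plus strand for Hopx, chr18:37505866-37506165 on the minus strand for Mcc and chr8:64333060-64333359 on the minus strand for Chrnb4.
Agr2: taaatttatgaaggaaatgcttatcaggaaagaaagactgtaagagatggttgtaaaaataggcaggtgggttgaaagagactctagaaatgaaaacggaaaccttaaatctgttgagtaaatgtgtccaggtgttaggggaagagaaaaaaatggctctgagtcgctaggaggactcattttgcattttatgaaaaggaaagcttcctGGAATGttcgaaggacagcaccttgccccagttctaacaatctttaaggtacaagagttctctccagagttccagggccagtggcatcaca
Hopx: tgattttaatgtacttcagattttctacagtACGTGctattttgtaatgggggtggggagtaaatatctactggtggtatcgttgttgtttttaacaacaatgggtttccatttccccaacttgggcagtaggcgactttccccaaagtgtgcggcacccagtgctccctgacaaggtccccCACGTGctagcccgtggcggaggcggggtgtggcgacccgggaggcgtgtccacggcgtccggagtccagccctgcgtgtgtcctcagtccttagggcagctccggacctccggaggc
Mcc: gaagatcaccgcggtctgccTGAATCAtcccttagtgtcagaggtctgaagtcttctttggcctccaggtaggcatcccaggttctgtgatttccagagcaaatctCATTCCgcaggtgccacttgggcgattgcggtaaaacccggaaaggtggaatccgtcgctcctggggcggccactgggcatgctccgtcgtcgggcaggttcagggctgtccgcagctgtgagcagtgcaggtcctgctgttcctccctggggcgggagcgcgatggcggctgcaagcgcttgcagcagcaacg
Chrnb4: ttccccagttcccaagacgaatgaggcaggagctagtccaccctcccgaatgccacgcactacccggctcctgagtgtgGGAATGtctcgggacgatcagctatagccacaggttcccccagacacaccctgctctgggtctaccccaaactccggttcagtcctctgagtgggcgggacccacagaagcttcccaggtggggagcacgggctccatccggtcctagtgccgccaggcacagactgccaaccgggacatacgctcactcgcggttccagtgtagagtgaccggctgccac
Agr2 and Chrnb4 each hold 1 TEAD motif, Hopx holds the hypoxia core on 3 strand positions, 2 of them as the 2 strands of CACGTG, and Mcc holds 1 TEAD motif, on the other strand, and 1 AP-1 motif. Among windows of the genes tested, 11.1% hold the TEAD motif, 11.9% TCF/LEF, 25.5% the hypoxia core and 5.09% AP-1. Of all 27457 windows it was 13.9% for TEAD, 15.9% for TCF/LEF, 19.7% for the hypoxia core and 7.33% for AP-1. A window was matched for 281 of the 378 genes called higher, 105 of the 141 called lower and 10064 of the 13331 genes tested. The matched part of the called genes was under the limit set beforehand for a comparison, so their motif shares were not compared.

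Some goblet cell genes were higher in both kinds of 3D growth. Of 14 tested members of a goblet secretory list (28 chosen), 7 were called higher and none lower, namely Dmbt1, Muc2, Clca1, Agr2, St6galnac1, Muc13 and Tff1. The other 7 were not called, and of these Galnt12, which starts mucin O-glycans, was below the cells in all 6 libraries (5.71 to 8.82 CPM in organoids and 11.6 to 15.3 CPM in ex vivo tumors, against 17.4 to 19.5 CPM in cells). The median log2 fold change of the list was 2.93 in organoids and 3.38 in ex vivo tumors. The 7 called are 50% of the members tested, against 2.84% of all genes tested. Members almost without counts in cells, such as Dmbt1 and Agr2, were tested only because 3D growth brought them past the filter on low values. The 50% therefore comes from members picked in part for high values in 3D growth. Muc2, which forms the mucus gel of the colon, was at 144, 15.3 and 17.0 CPM in organoids and 2.51, 60.7 and 27.9 CPM in ex vivo tumors, against 0.477, 0.223 and 0.508 CPM in cells. The highest value of 3D growth was 57.5-fold the lowest, and ex vivo 1 was the closest to the cells. The log2 fold change was 7.16 (SE 1.33, adjusted p = 0.00718) in organoids and 6.21 (SE 1.30, adjusted p = 0.00612) in ex vivo tumors. Muc13, a transmembrane mucin, was more even, at 21.5, 13 and 15.7 CPM in organoids and 11.4, 15.9 and 11.4 CPM in ex vivo tumors, against 0.0867, 0 and 0.339 CPM in cells. Agr2, whose product folds mucins in the endoplasmic reticulum, was at 53.8, 3.48 and 6.06 CPM in organoids and 14.6, 33.0 and 27.1 CPM in ex vivo tumors, against at most 0.113 CPM in cells. Dmbt1, a secreted scavenger of mucosal surfaces, was at 1161, 2.08 and 6.06 CPM in organoids and 30.7, 350 and 284 CPM in ex vivo tumors, with 3 counts in all cells. Its ratio of counts to cells, 8833 in organoids (95% counting interval 3022 to 42840), rests on p7. The call of Dmbt1 was lost without cells p5 (adjusted p = 0.0956), p8 (0.103) or p11 (0.0556), and that of Clca1 without cells p5 (0.082) or p8 (0.062). Tff1, a trefoil peptide of the mucus, fell below the filter without any 1 organoid library or ex vivo 2 or 3. Without cells p5 or p8, 5 members of the list were called.

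Muc5ac and Muc5b, gel-forming mucins of stomach and airway mucus that neighbor Muc2 in mammalian genomes, were looked at after their values had been seen. Muc5b was at 86.0, 46.0 and 49.6 CPM in organoids and 39.0, 55.2 and 64.8 CPM in ex vivo tumors, against 1.21, 0.334 and 3.95 CPM in cells. Muc5ac was at 24.5, 39.1 and 37.4 CPM in organoids and 6.23, 19.9 and 36.2 CPM in ex vivo tumors, against 0.563, 0 and 1.92 CPM in cells. For Muc5b the log2 fold change was 5.05 (SE 0.65, adjusted p = 0.00112) in organoids and 4.86 (SE 0.64, adjusted p = 0.000258) in ex vivo tumors. For Muc5ac it was 5.35 (SE 0.90, adjusted p = 0.00453) in organoids and 4.66 (SE 0.88, adjusted p = 0.00326) in ex vivo tumors. Muc2, Muc5b, Muc5ac, Muc13 and Agr2 kept the call whichever library was left out.

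Part of the genes of intestinal epithelial differentiation were higher as well. Of 34 tested members of a list of intestinal epithelial differentiation (38 chosen), 11 were called higher and none lower, with a median log2 fold change of 0.83 in organoids and 1.04 in ex vivo tumors. These 11 are 32.4% of the members tested, against 2.84% of all genes tested. Members almost without counts in cells, such as Plac8, passed the filter on low values only through 3D growth, which can raise this share. Cdh17, the intestinal cadherin, was at 294, 218 and 216 CPM in organoids and 161, 133 and 137 CPM in ex vivo tumors, against 33.9, 15.2 and 33.2 CPM in cells. Its log2 fold change was 3.14 (SE 0.31, adjusted p = 0.000358) in organoids and 2.39 (SE 0.30, adjusted p = 0.000173) in ex vivo tumors. Lgals4, a galectin of the apical membrane, was at 196 to 224 CPM in organoids, 102 to 259 CPM in ex vivo tumors and 24.9 to 47.5 CPM in cells. Vil1, which encodes the microvillus protein villin, was at 146, 42.4 and 44.0 CPM in organoids and 98.3 to 101 CPM in ex vivo tumors, against 11 to 18.2 CPM in cells. Hnf4a, a transcription factor of the intestinal lineage, was at 32.3 to 64.6 CPM in organoids, 17.4 to 29.0 CPM in ex vivo tumors and 4.73 to 14.1 CPM in cells. Plac8 was at 19.2, 9.32 and 7.93 CPM in organoids and 258, 39.4 and 82.8 CPM in ex vivo tumors, against at most 0.565 CPM in cells. The other members called were Phgr1, Tspan1, Tspan8, Myo1a, Cldn3 and Elf3. Slc26a3, Aqp8, Fabp1, Fabp2, Krt20, Anpep and Dpp4, also of the list, were not among the genes called, whether or not they were tested. Cdh1, the E-cadherin gene, was not called, with 757 to 901 CPM in organoids, 526 to 822 CPM in ex vivo tumors and 600 to 719 CPM in cells.

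The brush border is a layer of actin-filled microvilli. Myo7b and Cdhr5, genes of it outside the list, were called higher. Myo7b came from the leading genes, so neither was picked independently of its values. Of the list's own brush border genes, Vil1 and Myo1a were called, while Ezr, Anpep and Dpp4 were not among the genes called. Myo7b, the myosin that anchors the links between microvillus tips, was at 28.2, 14.4 and 11.2 CPM in organoids and 6.76, 8.80 and 6.06 CPM in ex vivo tumors, against 0.0433, 0.0556 and 0.113 CPM in cells. The log2 fold change of Myo7b was 7.89 (SE 0.57, adjusted p = 8.3e-05) in organoids and 6.58 (SE 0.57, adjusted p = 1.09e-05) in ex vivo tumors. Cdhr5, a cadherin of those links chosen after its values were seen, was at 7.84, 5.28 and 2.33 CPM in organoids and 7.75, 4.81 and 3.81 CPM in ex vivo tumors, against 0.563, 1.00 and 0.847 CPM in cells. Myo1a, a myosin of the microvillus membrane, was at 6.79 to 27.3 CPM in organoids, 11.8 to 26.5 CPM in ex vivo tumors and 2.17 to 3.56 CPM in cells. Cdh17, Lgals4, Vil1, Plac8, Myo7b and Cdhr5 kept the call whichever library was left out, while Myo1a lost it without cells p5 (adjusted p = 0.0933) or p8 (0.092) and Hnf4a without cells p8 (0.0854), cells p11 (0.0764), ex vivo 1 (0.0767) or ex vivo 2 (0.0674). The count of called members was 5 without cells p8 and 7 without cells p5.

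Some stem cell and WNT target genes were higher in organoids and higher still in the tumors. Of 21 tested members of the list (29 chosen), 5 were called higher and none lower, with a median log2 fold change of 0.53 in organoids and 1.27 in ex vivo tumors. Those called were 23.8% of the members tested, against 2.84% of all genes tested. Notum, with few counts in cells, passed the filter on low values only through 3D growth, which can raise this share. Notum, a secreted enzyme that inactivates WNT ligands, was at 14.3, 2.86 and 3.20 CPM in organoids and 154, 294 and 251 CPM in ex vivo tumors, against 0.260, 0.223 and 0.395 CPM in cells. Lgr5, the receptor that marks crypt stem cells, was at 26.6, 12.3 and 10.3 CPM in organoids and 86.3, 266 and 213 CPM in ex vivo tumors, against 4.16, 6.12 and 2.26 CPM in cells. Sox9, a transcription factor of crypt progenitors, was at 32.3, 63.1 and 56.5 CPM in organoids and 106, 165 and 129 CPM in ex vivo tumors, against 23.2, 14.7 and 22.4 CPM in cells. Ascl2, a stem cell factor, and Wif1, a WNT inhibitor, were the other members called. All 5 also differed between ex vivo tumors and organoids, by 5.08 (Notum), 3.52 (Lgr5), 2.68 (Wif1), 1.73 (Ascl2) and 1.40 (Sox9) on the log2 scale (adjusted p = 0.000114 to 0.00565). Axin2, a direct WNT target, was above the cells in all 6 libraries (144 to 190 CPM in organoids and 147 to 320 CPM in ex vivo tumors, against 83.2 to 117 CPM in cells) but was not called (adjusted p = 0.0937 in organoids), except without ex vivo 1 (0.0358). Notum kept its call whichever library was left out. Lgr5 lost it without any 1 cell library (adjusted p = 0.114 without p5, 0.0539 without p8 and 0.0732 without p11), Wif1 without cells p5 (0.103) or p8 (0.099), Ascl2 without organoids p9 (0.059) or cells p5 (0.052), and Sox9 without organoids p8 (0.0636), organoids p9 (0.0566) or cells p8 (0.0843). The list had 2 members called without cells p5 or p8 and 3 without organoids p9.

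Genes of the oxygen response were higher in part. Of 24 tested HIF targets outside glycolysis (30 chosen), 4 were called higher (Stc1, Ca9, Adm and Epas1) and none lower, with a median log2 fold change of 1.99 in organoids and 0.32 in ex vivo tumors. The share called higher was 16.7% here and 8.7% among the glycolysis genes below, against 2.84% of all genes tested. Members almost without counts in cells, such as Stc1, passed the filter on low values only through 3D growth, which can raise these shares. Ca9, a carbonic anhydrase of the cell surface, was at 86.4, 280 and 267 CPM in organoids and 59.8, 37.1 and 30.8 CPM in ex vivo tumors, against 2.69, 1.78 and 3.16 CPM in cells. Ca9 had log2 fold changes of 6.37 (SE 0.52, adjusted p = 0.000117) in organoids and 4.06 (SE 0.47, adjusted p = 9.74e-05) in ex vivo tumors, which differed from each other by -2.31 (ex vivo tumors minus organoids, adjusted p = 0.0025). Adm, the gene of the vessel-dilating peptide adrenomedullin, was at 2.52, 8.87 and 10.9 CPM in organoids and 19.1, 11.4 and 12.4 CPM in ex vivo tumors, against 1.08, 0.501 and 0.847 CPM in cells. Epas1, which encodes HIF-2 alpha, was at 45.7 to 57.4 CPM in organoids, 97.0 to 128 CPM in ex vivo tumors and 19.1 to 34.5 CPM in cells. Hif3a, an HIF subunit that is itself induced by hypoxia and was chosen after its values were seen, was at 5.45 to 12.1 CPM in organoids and 10.3 to 22.4 CPM in ex vivo tumors, against 0.508 to 0.997 CPM in cells. The best known target, Vegfa, was not called, with 377, 1713 and 1579 CPM in organoids and 274 to 440 CPM in ex vivo tumors, against 219 to 506 CPM in cells. Among 23 glycolysis genes, Eno2 and Aldoc were called higher and none lower, with a list median of 1.22 in organoids and -0.02 in ex vivo tumors. Aldoc, an aldolase, was at 7.65, 18.4 and 18.3 CPM in organoids and 6.0, 2.69 and 4.28 CPM in ex vivo tumors, against 0.0867, 0.389 and 0.170 CPM in cells. Slc2a1, the glucose transporter GLUT1, was above the cells in all 6 libraries, with a log2 fold change of 2.48 (adjusted p = 0.00194) in organoids and 1.04 (adjusted p = 0.0533) in ex vivo tumors. It was called without organoids p7 (adjusted p = 0.00186). The HIF list had 8 members called and the glycolysis list 4 without organoids p7. Epas1 lost its call without cells p5 (adjusted p = 0.119), cells p8 (0.16) or 4 other single libraries, while Stc1, Ca9, Adm, Hif3a, Eno2 and Aldoc kept theirs.

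Txnip and Arrdc4, related alpha-arrestins that limit glucose uptake and respond to sugar through the MondoA and ChREBP factors, were both higher. They were chosen after their values had been seen. Txnip was at 195, 86.2 and 90.0 CPM in organoids and 216, 125 and 192 CPM in ex vivo tumors, against 0.520, 2.72 and 4.18 CPM in cells. The lowest library of 3D growth was 20.6-fold above the highest of the cells. On the log2 scale Txnip was higher by 5.67 (SE 0.63, adjusted p = 6e-04) in organoids and 6.19 (SE 0.65, adjusted p = 4.54e-05) in ex vivo tumors. Arrdc4 was at 7.16, 12 and 15.8 CPM in organoids and 12.2, 12.4 and 22.4 CPM in ex vivo tumors, against 0.173, 0.779 and 0.508 CPM in cells. In both genes cells p5 was the lowest of the 9 libraries, and both kept the call whichever library was left out.

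Some cell division genes were lower in 3D growth. Of 35 tested mitosis genes, 6 were called lower (Ccna2, Prc1, Bub1, Kif20a, Kif23 and Aurka) and none higher, 13 were below the cells in all 6 libraries, and the median log2 fold change was -0.93 in organoids and -0.78 in ex vivo tumors. Called lower were thus 17.1% of the list, against 1.06% of all genes tested. Of all genes tested, 5.53% were below the cells in all 6 libraries. Ccna2, the cyclin A2 gene, was at 117, 82.4 and 91.5 CPM in organoids and 74.2, 91.6 and 90.7 CPM in ex vivo tumors, against 257, 267 and 132 CPM in cells. In Ccna2 the log2 fold change was -1.17 (SE 0.27, adjusted p = 0.0201) in organoids and -1.36 (SE 0.27, adjusted p = 0.00484) in ex vivo tumors. Prc1, which bundles microtubules of the spindle midzone, was at 104 to 146 CPM in organoids, 104 to 137 CPM in ex vivo tumors and 192 to 306 CPM in cells. Hmmr, a spindle protein chosen after its values were seen, was at 38.4, 27.0 and 29.2 CPM in organoids and 29.9, 41.5 and 30.2 CPM in ex vivo tumors, against 115, 85.5 and 58.2 CPM in cells, and it kept the call whichever library was left out. Cells p11 was the lowest of the cell libraries in each of Ccna2, Prc1, Bub1, Kif20a, Kif23, Aurka and Hmmr. The proliferation marker Mki67 was not called, with 361 to 566 CPM in organoids, 275 to 530 CPM in ex vivo tumors and 491 to 863 CPM in cells. The count of called mitosis genes was 0 without cells p5, cells p8, organoids p8 or organoids p9, 20 without organoids p7 and 14 without cells p11. It was 2 without ex vivo 3 and 3 without ex vivo 1 or ex vivo 2. None of 40 DNA replication genes and none of 40 genes of MYC and ribosome assembly was called.

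A few YAP and TEAD targets were lower. Of 29 tested (34 chosen), 3 were called lower (F3, Il33 and Ankrd1) and none higher, 11 were below the cells in all 6 libraries and none above, and the median log2 fold change was -0.48 in organoids and -0.70 in ex vivo tumors. The share called lower was 10.3%, against 1.06% of all genes tested, of which 5.53% were below the cells in all 6 libraries. F3, the gene of tissue factor, which starts blood clotting, was at 34.8, 73.2 and 65.5 CPM in organoids and 87.1, 90.1 and 72.8 CPM in ex vivo tumors, against 290, 245 and 228 CPM in cells. The log2 fold change of F3 was -2.14 (SE 0.27, adjusted p = 0.00112) in organoids and -1.61 (SE 0.27, adjusted p = 0.00135) in ex vivo tumors. Il33, an alarmin cytokine, was at 681 to 825 CPM in organoids, 604 to 874 CPM in ex vivo tumors and 1507 to 2395 CPM in cells. F3 and Il33 kept the call whichever library was left out, and Ankrd1, a nuclear ankyrin repeat protein, lost it without cells p8 (adjusted p = 0.119) or 4 other single libraries. The matricellular targets Ccn1 and Ccn2 were not called. Ccn1 was at 15.1 to 51.6 CPM in organoids, 71.2 to 98.4 CPM in ex vivo tumors and 107 to 172 CPM in cells (log2 fold change -1.93, adjusted p = 0.0118 in organoids, and -0.73, adjusted p = 0.211 in ex vivo tumors), and it was called without organoids p7 (adjusted p = 0.025). The list had 5 members called without organoids p7. Vgll1, described above, was not in this list. The actin and SRF target list had no called member among 37. Of 34 integrin and focal adhesion genes only Fermt1 was called. It encodes kindlin-1, which activates integrins, and it was at 84.5, 143 and 119 CPM in organoids and 122, 148 and 135 CPM in ex vivo tumors, against 338, 456 and 385 CPM in cells, with the call kept whichever library was left out. The fibronectin gene Fn1 was at 104 to 231 CPM in organoids and 1978 to 2903 CPM in ex vivo tumors, against 1774 to 5982 CPM in cells, so that the tumors and the cells overlapped. It was called lower without cells p11 (adjusted p = 0.0429).

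**Figure D3:**
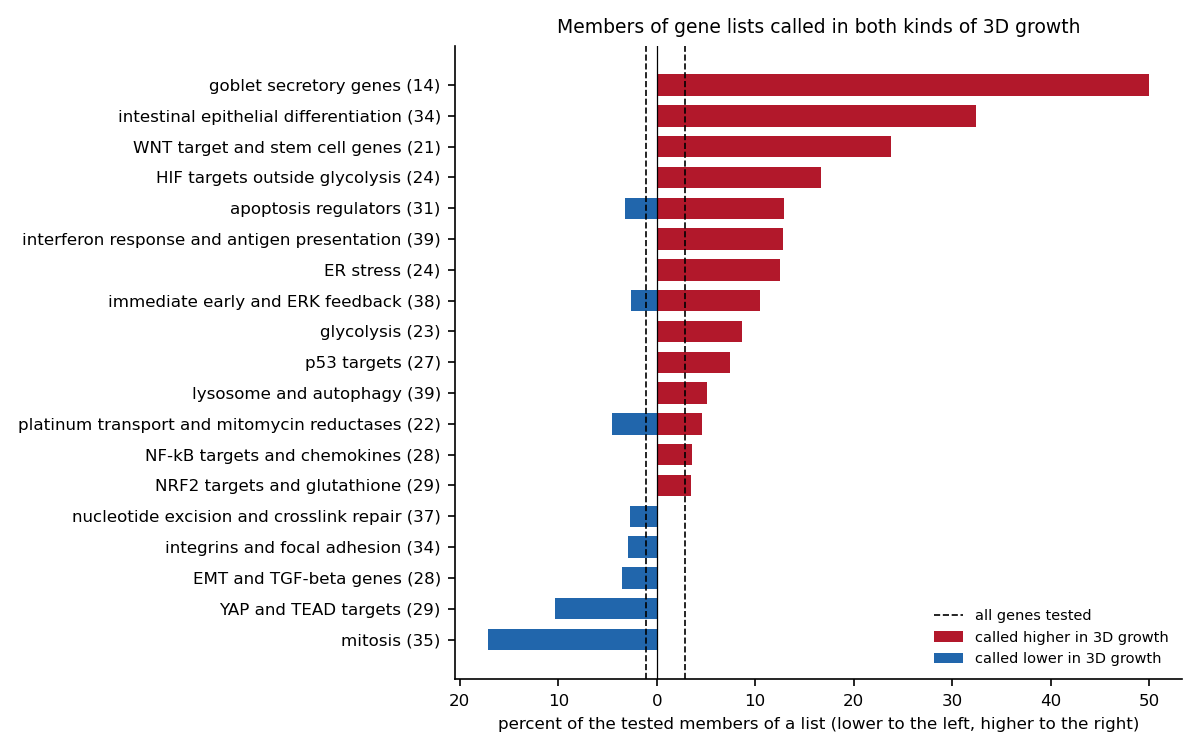
Bars show the percent of tested members of each gene list called higher (red, to the right) or lower (blue, to the left) in both kinds of 3D growth, with the number tested in parentheses and dashed lines at the share of all genes tested, 2.84% higher and 1.06% lower. Genes almost without counts in cells were tested only if 3D growth brought them past the filter on low values, which can raise a share called higher. Lists with no called member and marker lists of other cell types are not drawn. Of the marker lists, mesothelium and adipocyte reached 33.3% (Fabp4 and Upk1b of 6 tested), fibroblast and matrix 10.5% and macrophage and myeloid 8.33%, all on the higher side. Among those drawn, the goblet list reaches 50%, intestinal epithelial differentiation 32.4%, WNT and stem cell genes 23.8% and mitosis 17.1%, the last on the lower side.

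Naip6 and Nlrp1a, among the leading genes called higher, encode sensors of innate immunity, and related genes were looked at beside them without a list. Naip5 and Naip6 encode sensors of bacterial proteins such as flagellin, Nlrc4 the partner with which they assemble an inflammasome, and Casp1 the protease it activates. Naip6 was at 16.1, 1.96 and 0.866 CPM in organoids and 18.7, 26.8 and 21.2 CPM in ex vivo tumors, with 3 counts in all cells. Nlrc4 was at 33.9, 10.4 and 7.79 CPM in organoids and 7.52, 10.6 and 9.41 CPM in ex vivo tumors, against 0.390, 0.389 and 0.395 CPM in cells. On the log2 scale Nlrc4 was higher by 5.45 (SE 0.60, adjusted p = 0.000592) in organoids and 4.53 (SE 0.59, adjusted p = 0.000241) in ex vivo tumors. Casp1 was at 2.86, 0.449 and 0.533 CPM in organoids and 45.6, 30.3 and 26.5 CPM in ex vivo tumors, against at most 0.113 CPM in cells. Nlrp1a, another inflammasome sensor, was at 0.678 to 3.60 CPM in organoids and 11.5 to 17.8 CPM in ex vivo tumors, with 1 count in all cells. Naip5, Nlrc4 and Casp1 were chosen after their values were seen, and Naip genes are closely related copies that can share reads. Casp1 was 4.69 higher in ex vivo tumors than in organoids on the log2 scale (adjusted p = 0.000281), as the summed macrophage markers were higher there, whose part in it was not tested. Casp1 lost its call without cells p5 (adjusted p = 0.0888) or p8 (0.0642), Naip5 fell below the filter without organoids p7 or any 1 tumor, and Naip6 and Nlrc4 kept their calls.

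A few interferon genes were higher in both kinds of 3D growth. Of 39 tested genes of interferon response and antigen presentation, 5 were called higher (Gbp5, Ifi27, Ifi47, Mx2 and Cxcl10) and none lower, with a median log2 fold change of 0.21 in organoids and 2.88 in ex vivo tumors. These 5 are 12.8% of the genes tested in the list, against 2.84% of all genes tested. Gbp5, almost without counts in cells and organoids, was tested only because the tumors brought it past the filter on low values. The 12.8% therefore comes from members picked in part for high values in the tumors. Ifi27 was at 19.0, 31.3 and 30.6 CPM in organoids and 75.7, 33.3 and 64.9 CPM in ex vivo tumors, against 3.42, 5.34 and 8.53 CPM in cells. Ifi47, an interferon-induced GTPase, was at 9.00, 3.14 and 3.66 CPM in organoids and 81.6, 75.6 and 89.2 CPM in ex vivo tumors, against 0.736, 1.11 and 1.36 CPM in cells. Gbp5, a guanylate-binding protein, was at 0.242, 0.337 and 0.20 CPM in organoids and 85.0, 127 and 78.7 CPM in ex vivo tumors, with 2 counts in all cells, so that the organoids lay near the limit of detection. Ifitm1, Ifitm2 and Ifitm3, which block virus entry and were chosen after their values were seen, were all called. Ifitm2 was at 8.52, 8.09 and 5.40 CPM in organoids and 30.01, 19.6 and 18.8 CPM in ex vivo tumors, against 0.477, 0.111 and 1.02 CPM in cells. The 3 Ifitm genes are related copies, so reads that match more than 1 of them may be lost or assigned to the wrong one. Ifi27, Ifi47, Ifitm1 and Ifitm2 kept the call whichever library was left out, Ifitm3 lost it without organoids p8 (adjusted p = 0.0534), cells p5 (0.0753) or cells p8 (0.0672), and Gbp5 lost it without organoids p8 (0.115), organoids p9 (0.0611), cells p5 (0.0982) or cells p8 (0.107) and fell below the filter without ex vivo 2. The list had 8 members called without organoids p7 and 3 without cells p5, cells p8, organoids p8, organoids p9 or ex vivo 2. The summed macrophage markers stand far higher in the tumors, and their part in these genes was not tested.

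**Figure D4:**
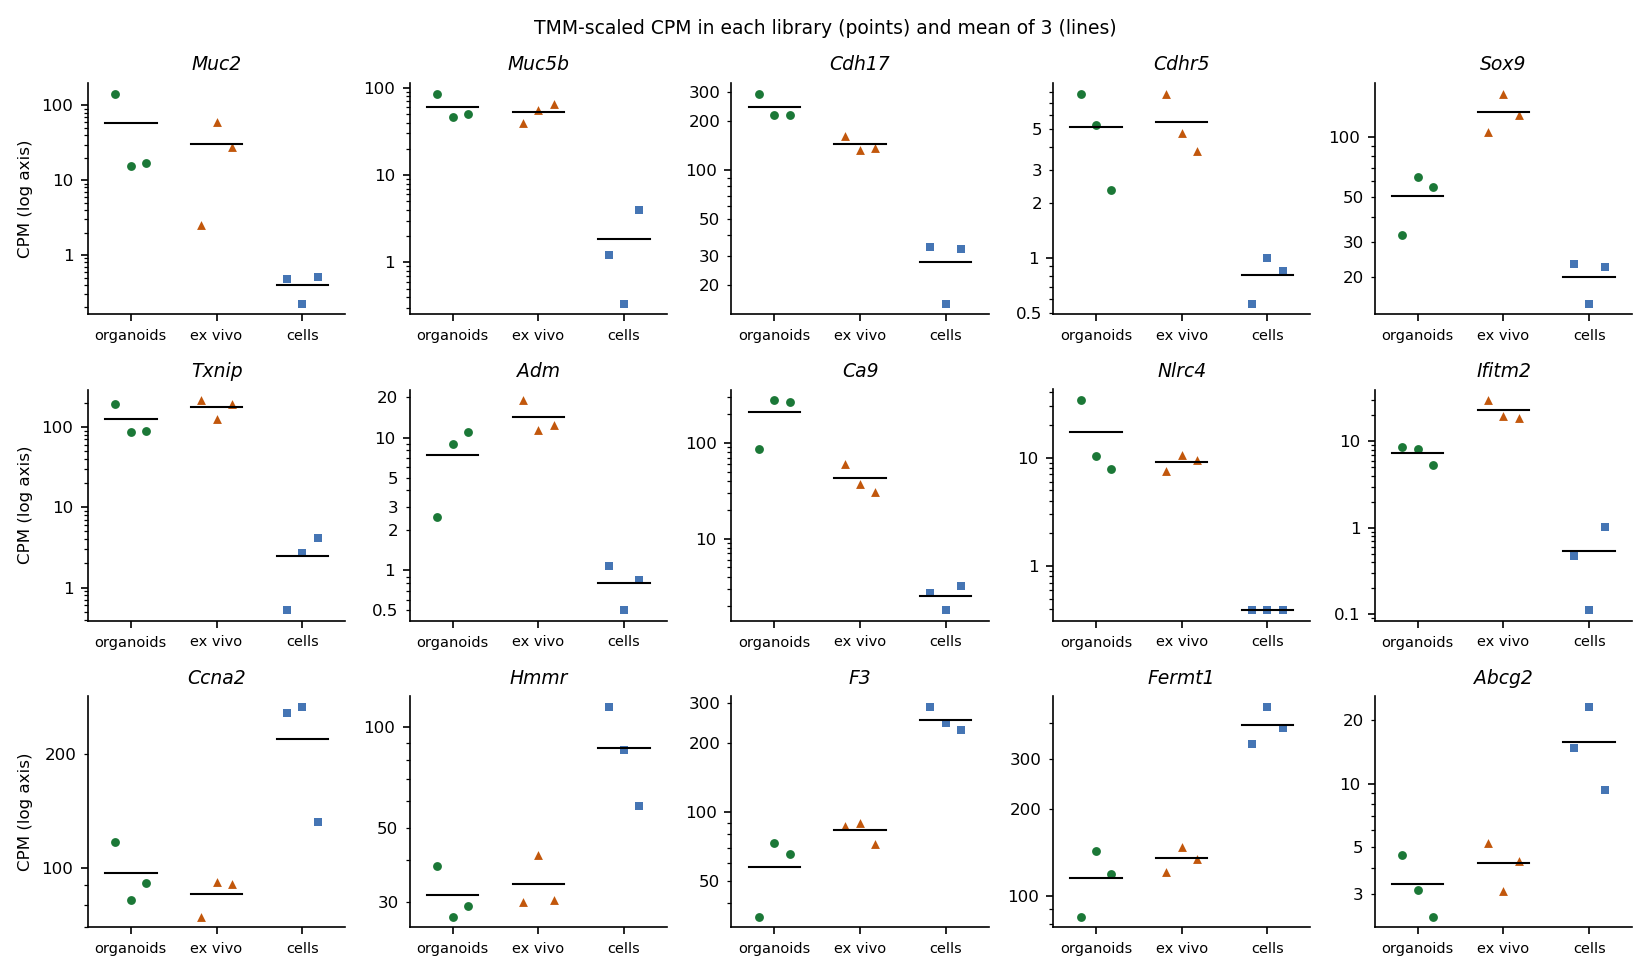
Each panel plots TMM-scaled CPM on a log axis for 1 gene, with the 3 libraries of organoids (circles), ex vivo tumors (triangles) and cells (squares) as points in the order of their numbers and the mean of each type as a line. In each of the 10 upper panels all 6 libraries of 3D growth lie above all cell libraries, and in each of the 5 lower panels, from Ccna2 to Abcg2, they lie below. Txnip has the widest gap between the types and Ccna2 one of the narrowest.

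Immediate early genes moved both ways. Of 38 tested genes of the immediate early and ERK feedback list, Fos, Btg2, Spry4 and Egr2 were called higher and Fosb lower, with 7 called higher without cells p11. With all libraries 10.5% of the list was called higher and 2.63% lower, against 2.84% and 1.06% of all genes tested. Btg2, an antiproliferative gene that p53 also induces, was at 132, 130 and 130 CPM in organoids and 144, 72.8 and 84.5 CPM in ex vivo tumors, against 31.1, 20.8 and 42.1 CPM in cells. Spry4, an inhibitor of the ERK pathway, was at 45.0, 105 and 99.8 CPM in organoids and 39.9, 38.2 and 61.5 CPM in ex vivo tumors, against 7.88, 9.01 and 18.5 CPM in cells. Fos was at 33.1, 25.1 and 28.8 CPM in organoids and 133, 112 and 108 CPM in ex vivo tumors, against 6.15, 4.73 and 15.5 CPM in cells. Its paralog Fosb was at 10.8, 23.2 and 20.05 CPM in organoids and 10.7, 8.59 and 12.4 CPM in ex vivo tumors, against 25.5, 60.2 and 50.7 CPM in cells. Btg2, Spry4 and Egr2 kept the call whichever library was left out. Fos lost it without cells p5 (adjusted p = 0.0776) or p8 (0.0581), and Fosb without cells p8 (0.159) or 4 other single libraries.

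Lists of drug handling and stress had few called members. Of all genes tested, 2.84% were called higher and 1.06% lower. Among 22 tested genes of platinum transport and mitomycin reductases, Abcc5, an export pump, was called higher and Abcg2, another export pump, lower (4.55% each way). Abcg2 was at 4.6, 3.14 and 2.33 CPM in organoids and 5.24, 3.10 and 4.28 CPM in ex vivo tumors, against 14.8, 23.2 and 9.38 CPM in cells. The log2 fold change of Abcg2 was -2.23 (SE 0.41, adjusted p = 0.00672) in organoids and -1.91 (SE 0.40, adjusted p = 0.0064) in ex vivo tumors, and it kept the call whichever library was left out. Abcc5 lost its call without any of 8 single libraries (adjusted p = 0.0674 to 0.139), ex vivo 1 being the exception. Slc31a1, the copper transporter CTR1, through which platinum drugs can enter cells, was above the cells in all 6 libraries by a small margin (67.5 to 75.7 CPM in organoids and 62.4 to 81.2 CPM in ex vivo tumors, against 55.6 to 61.4 CPM in cells) and was not called (adjusted p = 0.318 in organoids and 0.231 in ex vivo tumors). Nqo1, a quinone reductase, went opposite ways, at 129 to 211 CPM in organoids and 12 to 17.1 CPM in ex vivo tumors, against 46.0 to 59.1 CPM in cells. The endoplasmic reticulum stress list had 3 of 24 members called higher (12.5%), the kinase gene Eif2ak3, the disulfide isomerase gene P4hb and the transcription factor gene Xbp1. None was called without cells p5, cells p8, organoids p8 or organoids p9, 1 was without cells p11, ex vivo 2 or ex vivo 3, and 5 were without organoids p7. Among 31 apoptosis regulators, Tnfrsf1a, Mcl1, Bmf and Birc2 were called higher (12.9%) and Casp8 lower (3.23%). None of the 4 was called higher without cells p5, cells p8 or organoids p9, 1 was without organoids p8, 2 were without cells p11, ex vivo 2 or ex vivo 3, and Casp8 kept its call only without organoids p7. Of 27 p53 targets, Btg2 and Sesn1 were called higher (7.41%), Sesn1 losing its call without cells p8 (adjusted p = 0.12) or 5 other single libraries.

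None of 28 cholesterol synthesis genes was called, with a median log2 fold change of 1.62 in organoids and -1.03 in ex vivo tumors, on opposite sides of the cells. Vim, the filament gene vimentin, was split the other way round, at 52.1 to 131 CPM in organoids and 539 to 966 CPM in ex vivo tumors, against 171 to 312 CPM in cells. Single members were called in other lists. Of all genes tested, 2.84% were called higher and 1.06% lower, so these counts say little about a list. The share called higher was 5.13% for lysosome and autophagy, 3.57% for NF-kB targets and 3.45% for NRF2 targets. The share called lower was 2.7% for repair genes and 3.57% for genes of epithelial-mesenchymal transition. Tpp1 and Ctsf, lysosomal proteases, were called higher among 39 lysosome and autophagy genes, the chemokine gene Cx3cl1 among 28 NF-kB targets and the glutathione transferase gene Gsta1 among 29 NRF2 targets. Blm, a DNA helicase, was called lower among 37 repair genes and Smad7, an inhibitor of TGF-beta signaling, among 28 genes of epithelial-mesenchymal transition. Each lost its call without some single library, with the largest adjusted p at 0.101 for Tpp1 (without cells p8), 0.0796 for Ctsf (ex vivo 1), 0.185 for Cx3cl1 (cells p8), 0.185 for Blm (organoids p8) and 0.113 for Smad7 (cells p8), and Gsta1 fell below the filter without organoids p7 or ex vivo 1. None of 23 fatty acid synthesis genes, 52 respiratory chain subunits, 23 heat shock proteins or 30 ATF4 targets was called.

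The genes called higher were not equal in organoids and tumors. Ex vivo tumors differed from organoids in 3027 of the 13331 genes tested (22.7%, either direction). Among the 378 genes called higher it was 119 (31.5%), with the tumors above the organoids in 108 and below them in 11, and among the 141 called lower it was 14 (9.93%). Since a called gene had to differ from the same cells in both, these shares were given as a description. Of the 378 genes, 5 belong to lists of other cell types. The share called higher was 10.5% of 19 tested fibroblast and matrix genes and 8.33% of 12 macrophage and myeloid genes. It was 33.3% of 6 mesothelium and adipocyte genes, against 2.84% of all genes tested, and no member of the other marker lists was called. Lyz2, the lysozyme of macrophages, was at 0.774, 0.898 and 0.533 CPM in organoids and 1935 to 2756 CPM in ex vivo tumors, against 0.0867, 0.223 and 0.282 CPM in cells, so that the organoids passed the test at a level under 1 CPM. Col6a3, a chain of collagen VI, was at 15.0 to 24 CPM in organoids and 170 to 428 CPM in ex vivo tumors, against 0.834 to 2.60 CPM in cells. C1r, the complement protease, was at 4.04 to 5.26 CPM in organoids and 139 to 184 CPM in ex vivo tumors, against 1.45 to 2.60 CPM in cells. Fabp4, a fatty acid binding protein of adipocytes, was at 28.1, 4.44 and 6.13 CPM in organoids and 294, 13.1 and 16.5 CPM in ex vivo tumors, against at most 0.226 CPM in cells. Upk1b, a uroplakin of urothelium and mesothelium, was at 9.49 to 20.9 CPM in organoids and 10.7 to 12.4 CPM in ex vivo tumors, against 0.612 to 2.04 CPM in cells. The calls of Lyz2, C1r and Fabp4 were lost without cells p5 (adjusted p = 0.104, 0.0587 and 0.114) or p8 (0.0753, 0.0587 and 0.106), that of Lyz2 also without organoids p8 (0.0891) and that of Fabp4 without cells p11 (0.058), while Col6a3 and Upk1b kept theirs. Taking these 5 out leaves 373 genes called higher, a subtraction without a new fit that does not measure the part of host RNA. The lists are short, and whether other called genes come from host cells was not tested. With organoids p7 and all genes over 4-fold higher in ex vivo tumors than in organoids left out, a setting chosen after seeing the data, 475 were called higher and 328 lower.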

How the data were processed

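Read counts per gene came from mRNA sequencing of 9 libraries. Per the submitters' processing notes and the study's methods, read quality was viewed in FastQC 0.11.9 and MultiQC 1.9, cutadapt 1.18 did the trimming and STAR 2.7.4 the alignment to mRatBN7.2, and the authors deposited STAR's counts, whole numbers that were not normalized although the table is named so. Neither strand setting nor annotation is given in the sources used here, and overlapping antisense genes cannot be told apart.

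Genes were kept where the mean quantile-normalized log2(count + 1) was at least 4. Counts were scaled by TMM and tested in R 4.3.3 with edgeR 4.0.16 (glmQLFit, two-sided glmQLFTest, 1 mean per sample type, 6 residual degrees of freedom). The SE is the ratio of the log2 fold change to the root of F. Named genes were the 12 leading ones in each direction, up to 3 per list and direction, and genes fixed by name, with others said to be chosen after their values were seen. Some of the named genes are not reported here. Members, lists and tests were chosen with earlier results of these data known, so list counts are descriptions. The procedure was tested on simulated data. Alternatives used limma 3.58.1, DESeq2 1.42.0, other scalings and filters, and each library left out. Of the table's names, 27234 matched a symbol of RefSeq GRCr8. Promoter windows were used 1 per gene, the first listed. Plots used Python 3.11.15 and matplotlib 3.10.9.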

Additional observations from a re-analysis of the deposited data

Results flagged for a closer look

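The genes below were picked out of the named genes because organoids and ex vivo tumors, set against the same cells, differed from each other (edgeR, adjusted p under 0.05 over all 13331 genes). Values are log2 differences, ex vivo tumors minus organoids. Most of those that had been called higher in both were higher still in the tumors. Among genes of macrophages, fibroblasts, inflammation and interferon response these were Lyz2 (11.62), Gbp5 (8.50), Ifitm3 (5.73), C1r (5.13), Casp1 (4.69), Ifi47 (3.95), Col6a3 (3.83), Ifitm1 (3.63), Ifitm2 (1.63) and Tnfrsf1a (1.03), while the summed macrophage markers were at 4153 to 4882 CPM in ex vivo tumors and 30.8 to 73.3 CPM in organoids, and their part in these values was not tested. Among stem cell, WNT and secretory genes they were Notum (5.08), Lgr5 (3.52), Hopx (3.62), Wif1 (2.68), Clca1 (1.98), Ascl2 (1.73) and Sox9 (1.40). Further ones were Calca (8.41), Cyp1b1 (3.61), Aldh1a1 (3.42), Plac8 (3.38), Tmem176b (2.99), Sbspon (2.77), Nlrp1a (2.64), Naip5 (2.13), Fos (2.02) and Epas1 (1.12).

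Of the named genes called higher, a smaller number were lower in the tumors than in the organoids, namely Ca9 (-2.31), Aldoc (-1.78) and Myo7b (-1.31), and of the named genes called lower it was Akap12 (-0.72). Named genes not called in both differed as well, with Fn1 (3.66), Vim (2.89), Ccn2 (1.75) and Ccn1 (1.20) higher in the tumors and Nqo1 (-3.69), Vegfa (-1.79), Slc2a1 (-1.44) and Abcb1a (-1.38) lower. No value of a single gene was tested against the others of its group of 3.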

How the results depend on the processing

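Under no alternative run was a gene called in the direction opposite to the one reported. The count of genes called higher was 224 with 3D growth fitted as 1 group of 6, 708 by the mean contrast alone, 248 with quantile normalization and limma, and 171 (without cells p8) to 587 (without organoids p7) with single libraries left out, against 378. The count called lower was 417 by the mean contrast alone, 255 with DESeq2, 328 without organoids p7 and genes over 4-fold higher in tumors than organoids, and 51 (without cells p8) to 335 (without organoids p7) with single libraries left out, against 141. Other tools, scalings, filters and the 2-fold limit gave 254 to 540 higher and 94 to 204 lower. Quantile normalization tested with limma, which changes scaling and test together, put the median log2 fold change of all genes in ex vivo tumors at -0.26 (0.00 with TMM) and gave 248 higher and 196 lower, against 378 and 141 (321 and 151 with TMM and limma-voom). Housekeeping scaling put it at -0.13 in organoids (0.03 with TMM). At an unadjusted p under 0.05 in both comparisons, without overlap, 704 genes were higher and 398 lower. Of 112 named genes called, 51 kept the call in all 9 leave-outs and 35 under all 13 other settings. Where a setting changed a call, the cause was not tested. Genes with few counts in cells are limited by depth, as their fold changes depend on 0 to 3 counts. No paired analysis was possible because organoids and cells share only the number p8 and the tumors are numbered on their own.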

Other observations

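Some genes outside the lists, chosen after their values were seen, are given as values. Calca, which encodes calcitonin and the peptide CGRP, was without counts in cells, so that organoids (0.393 to 0.733 CPM) were at least 11.3-fold higher and ex vivo tumors (155 to 225 CPM) at least 3984-fold higher. Ramp1, a subunit of the CGRP receptor, was called higher too, at 15.1, 15.7 and 14.7 CPM in organoids and 15.2, 6.16 and 5.36 CPM in ex vivo tumors, against 0.477, 0.111 and 0.395 CPM in cells. Guca2b, the gut hormone uroguanylin, was at 9.49, 2.53 and 2.93 CPM in organoids and 1.60, 3.57 and 1.32 CPM in ex vivo tumors, against 0.303, 0.111 and 0.113 CPM in cells, and fell below the filter on low values without organoids p7.

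Aldh1a1, Cyp1b1 and Kit were called higher. Aldh1a1, an aldehyde dehydrogenase, was at 6.10, 0.786 and 0.866 CPM in organoids and 18.2 to 35.0 CPM in ex vivo tumors, with 2 counts in all cells. Cyp1b1, a cytochrome P450, was at 0.532 to 2.13 CPM in organoids and 11.9 to 25.3 CPM in ex vivo tumors, with 6 counts in all cells, and it lost its call without cells p5 (adjusted p = 0.0589). The receptor tyrosine kinase gene Kit was at 34.2, 4.94 and 4.13 CPM in organoids and 8.13 to 19.4 CPM in ex vivo tumors, against 0.834 to 0.910 CPM in cells, and lost its call without cells p5 (adjusted p = 0.056) or p8 (0.0539). Abcb1a, the drug efflux pump P-glycoprotein, was higher in organoids (146 to 220 CPM) than in cells (18.9 to 49.5 CPM), but was at 29.0, 92.1 and 95.1 CPM in ex vivo tumors, so that ex vivo 1 overlapped with the cells.

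Among the genes called lower were Edn1, the gene of the vessel-constricting peptide endothelin 1, and the kinase gene Sgk1. Edn1 was at 5.66 to 16.1 CPM in organoids and 7.90 to 13 CPM in ex vivo tumors, against 23.5 to 38.4 CPM in cells. Sgk1 was at 26.7 to 94.9 CPM in organoids and 59.9 to 77.0 CPM in ex vivo tumors, against 138 to 242 CPM in cells. Both lost the call without any of 5 single libraries (adjusted p up to 0.129 for Edn1 and 0.109 for Sgk1, both without cells p8). The mitochondrial transfer RNA genes Trne, Trnl1, Trnm and Trnt were called lower as well. Trnm was at 92.4, 72.0 and 70.1 CPM in organoids and 90.0, 270 and 128 CPM in ex vivo tumors, against 487, 395 and 615 CPM in cells. Trne and Trnm kept the call whichever library was left out, Trnl1 lost it without any of 3 libraries and Trnt without any of 8. These genes are short and lie beside longer mitochondrial genes, so their reads may come from neighbors.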
